A study of Mus musculus with 8 samples.

Results

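The RNA and the H3K27me3 peaks of 10 genes that encode subunits of Polycomb repressive complex 1 (PRC1) were described in mouse embryonic stem cells (mESCs) treated with morphine. The genes were the catalytic subunits Ring1 and Rnf2, the PCGF subunits Pcgf1, Bmi1 and Pcgf6, the chromobox readers Cbx2 and Cbx7, the polyhomeotic subunit Phc1, and the variant subunits Rybp and Kdm2b. They were taken from the RNA-Seq count table by name, as the loci whose most frequent gene name was that of a member. This gave 11 of the 44396 loci in the table, since the name Bmi1 was carried by 2 loci. None of the 11 loci passed an FDR of 0.05 in their RNA after morphine by edgeR's quasi-likelihood test (1.52% of all tested loci did). Cbx7 RNA came nearest, 13% higher (log2 fold change 0.18 ± 0.05, SE), which passed under 3 of the alternatives, DESeq2 among them, but was 0.08 (FDR = 0.408 from the edgeR fit) with a correction for length and GC content. Cbx2 was the only locus of the 11 with an H3K27me3 peak near its 5′ end in all 4 libraries. Among all tested loci with a known 5′ end, 17.0% had such peaks.

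All cells were Oct4-GFP mESCs, a single commercial line that expresses GFP under the Oct4 promoter, grown feeder-free on gelatin. Control cells were given NaCl and treated cells 10 µM morphine, both for 24 h. Each condition had 2 RNA-Seq and 2 H3K27me3 ChIP-Seq libraries, 8 in all. The methods call the ChIP-Seq pairs biological replicates and the RNA-Seq pairs duplicates, without saying whether each came from its own culture, so p-values measure only the spread between these samples.

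PRC1 places ubiquitin on histone H2A through a RING1A or RNF2 (RING1B) ligase bound to a PCGF subunit. In canonical PRC1 the PCGF is BMI1 or PCGF2, and a chromobox (CBX) subunit binds H3K27me3, the mark laid down by Polycomb repressive complex 2 (PRC2). In variant PRC1, RYBP or YAF2 takes the place of the CBX subunit, and complexes with PCGF1 and KDM2B are brought to unmethylated CpG islands. In mESCs both kinds help keep developmental genes silent.

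The 4 RNA libraries held 25081266 to 29531096 counts, and 20350 loci passed the filter on low counts, the 11 PRC1 loci among them. Normalized values are CPM on TMM-adjusted library sizes, so that a gene can be compared between libraries, and changes are log2 fold changes of morphine against control from edgeR's quasi-likelihood test, with the FDR taken over all tested loci. The 10 pluripotency markers listed for these cells, such as Pou5f1, Nanog and Zfp42, summed to between 5410 and 5570 CPM in the 4 libraries. Pou5f1, at 1183 and 1272 CPM in the controls and 1507 and 1370 after morphine, was nearest to being called (log2 fold change 0.23, FDR = 0.0525 from the edgeR fit). Tfcp2l1 (−0.19, FDR = 0.0880) and Nanog (−0.12, FDR = 0.158) were lower in both morphine libraries. The sums were at most 44.8 CPM for 4 neuroectoderm markers, 42.4 CPM for 6 primitive endoderm markers, 12.5 CPM for 6 fibroblast markers and 5.42 CPM for 4 mesoderm markers, with no marker called. Col3a1, Lum, Postn, T, Mixl1, Mesp1 and Neurog2 were below 1 CPM in every library. In bulk RNA, fewer cells of a type and less RNA per cell cannot be told apart.

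The levels of the PRC1 genes spanned a wide range in these cells. Per kb of exon, control CPM was 124 ± 1.18 (SD, n = 2) for Phc1, a scaffold subunit whose SAM domain lets PRC1 form chains, and this was the highest. Rnf2 followed at 52.4 ± 1.52, then Cbx7 at 32.6 ± 1.67 and Rybp at 22.3 ± 0.621. Pcgf6 at 18.4 ± 0.170 and Kdm2b at 14.4 ± 0.0266 came next. The neighbours down to this point were separated, because their ranges over the 4 libraries did not overlap. Cbx2 at 8.77 ± 0.00844, Ring1 at 8.66 ± 0.277 and Pcgf1 at 6.80 ± 0.618 CPM per kb could not all be ordered. The range of Ring1 overlapped that of Cbx2 above it and that of Pcgf1 below it. Bmi1 was the lowest of the 10 genes, at 4.63 ± 0.0967 CPM per kb.

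**Figure D1:**
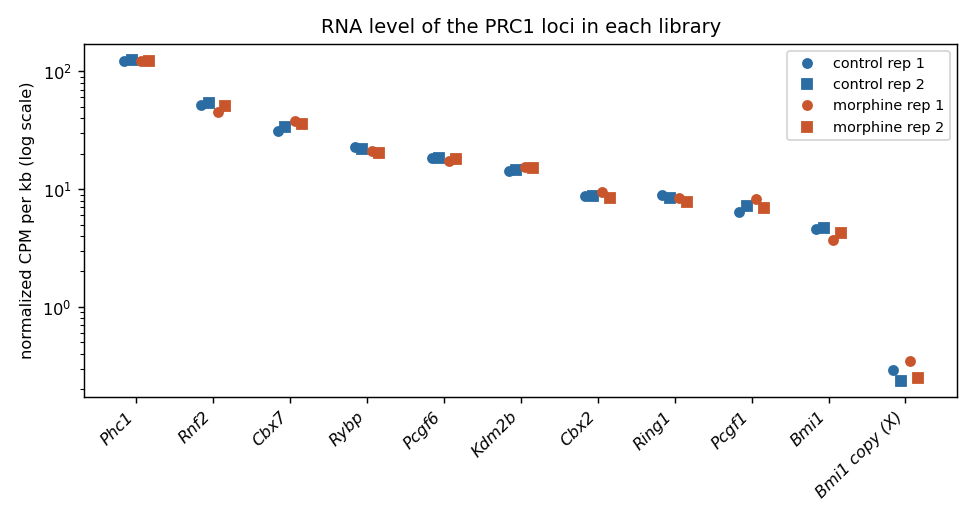
RNA level of the 11 PRC1 loci in each library, as normalized CPM per kb of exon on a log axis, with the loci ordered by their control mean. Circles are replicate 1 and squares replicate 2. The 4 points of a gene lie close together against the span from Phc1 at 124 to Bmi1 at 4.63 CPM per kb.

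Among members of a family the levels were unequal. Per kb, Rnf2 was 5.79 and 6.31 times the level of Ring1 in the controls and 5.40 and 6.46 times after morphine. Cbx7 was 3.58 and 3.85 times the level of Cbx2 in the controls and 3.96 and 4.31 times after morphine. Pcgf6 was 4.0 and 3.93 times the level of Bmi1 in the controls and 4.69 and 4.27 times after morphine. Against Pcgf1, the other variant PCGF among the members, Pcgf6 was 2.87 and 2.55 times as high in the controls and 2.09 and 2.61 times after morphine. The control and morphine ratios overlapped for Rnf2 to Ring1 and Pcgf6 to Pcgf1. Those of Cbx7 to Cbx2 and Pcgf6 to Bmi1 were higher in both morphine libraries. These ratios were not tested.

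The first question was whether the RNA of PRC1 subunits differed after 24 h of morphine. None of the 11 loci was called at an FDR of 0.05, against 1.52% of all tested loci (0.904% lower and 0.614% higher after morphine). At an unadjusted p under 0.05 there were 3 (Cbx7, Bmi1 and Rnf2), against 20.5% of all tested loci. Both morphine libraries were below both controls for 5 loci, where the share over all tested loci was 26.8%, and above both for 2 loci, where it was 26.0%. The log2 fold change was negative for 6 loci (49.7% of all tested loci were negative) and positive for 5, with a median of −0.02, beside 0.00 over all tested loci. For the 10 genes, without the X-linked Bmi1 copy, the 95% intervals of the log2 fold change reached no lower than −0.42 and no higher than 0.42.

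The ligases Ring1 and Rnf2 carry the RING domain that transfers ubiquitin. Ring1 (chr17:34020792-34024680, minus strand, mm10) had 18.0 and 17.2 CPM in the controls and 17.1 and 15.8 CPM after morphine. Both morphine libraries were thus below both controls, by little. The log2 fold change was −0.10 (SE 0.08, FDR = 0.542), and ran from −0.15 without morphine replicate 1 to −0.04 without morphine replicate 2. Rnf2 (chr1:151469406-151500823, minus strand), the main ligase of mESCs, had 182 and 190 CPM in the controls and 161 and 179 CPM after morphine. The groups did not overlap, and morphine replicate 1 stood lowest. The log2 fold change was −0.13 (SE 0.06, unadjusted p = 0.0413 from the edgeR fit, FDR = 0.223). It ranged from −0.20 without morphine replicate 2 to −0.06 without morphine replicate 1.

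The PCGF subunit decides which PRC1 forms. Pcgf1 (chr6:83078084-83080855, plus strand), of the variant complex that holds KDM2B, had 6.99 and 7.95 CPM in the controls and 9.05 and 7.57 CPM after morphine. The groups overlapped, with the highest value in morphine replicate 1. The log2 fold change was 0.15 (SE 0.13, FDR = 0.545), but 0.02 without morphine replicate 1 and 0.28 without morphine replicate 2. Pcgf6 (chr19:47033617-47050906, minus strand), of the variant complex with MGA, MAX and L3MBTL2, had 74.8 and 75.8 CPM in the controls and 70.8 and 73.9 CPM after morphine. Both morphine values were lower, and the log2 fold change was −0.06 (SE 0.05, FDR = 0.592), −0.03 without morphine replicate 1 and −0.09 without morphine replicate 2.

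Bmi1 (chr2:18677018-18686629, plus strand), the PCGF of canonical PRC1 known for silencing the Cdkn2a locus, had 16.9 and 17.4 CPM in the controls. After morphine it had 13.6 and 15.6 CPM, so that both treated libraries lay below both controls and morphine replicate 1 was the lowest. It had the lowest log2 fold change of the 11 loci, −0.23 (SE 0.09, unadjusted p = 0.0255 from the edgeR fit, FDR = 0.181), which is 14.5% less RNA. It ranged from −0.33 without morphine replicate 2 to −0.13 without morphine replicate 1 (FDR = 0.682 from the edgeR fit). Of all tested loci, 15.1% had a lower log2 fold change. The other locus of this name lies on the X chromosome (chrX:150220716-150226019, minus strand), where GENCODE has Gm5946, a transcribed processed pseudogene. It held 22 and 19 counts in the controls and 24 and 19 after morphine, with overlapping groups and a log2 fold change of 0.16 (SE 0.33, FDR = 0.832). Reads may be shared between this copy and Bmi1, so the small counts of the copy are uncertain.

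RefSeq promoters, from 250 bases before a start to 50 after it, were given for 7 of the 10 genes, with 10 starts in all (GRCm38.p6, the same coordinates as mm10). The Bmi1 promoter is shown because it was the only one of the 10 that held CACGTG, the E-box word bound by MGA and MAX, the DNA-binding partners of PCGF6. This word, which reads the same on both strands, was in 7.15% of the 32851 promoters of the table. The E2F word GCGGGAA, or TTCCCGC on the other strand, was in none of the 10 and in 4.60% of all. CG dinucleotides, which the CXXC zinc finger of KDM2B binds when unmethylated, are in capitals here and in the promoters printed further on.
Bmi1 promoter, chr2:18676768-18677067, plus strand: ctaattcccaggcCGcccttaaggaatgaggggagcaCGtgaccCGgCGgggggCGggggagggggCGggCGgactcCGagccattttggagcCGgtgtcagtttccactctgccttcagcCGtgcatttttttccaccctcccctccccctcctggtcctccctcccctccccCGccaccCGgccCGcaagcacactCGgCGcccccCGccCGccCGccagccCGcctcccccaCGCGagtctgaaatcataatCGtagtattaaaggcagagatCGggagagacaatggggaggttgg

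The chromobox subunits give canonical PRC1 its hold on H3K27me3. Cbx7 (chr15:79915807-79932646, minus strand), the main CBX of self-renewing mESCs, had 187 and 201 CPM in the controls and 224 and 214 CPM after morphine. Both morphine libraries were above both controls. The log2 fold change was 0.18 (SE 0.05, 95% interval 0.06 to 0.29, unadjusted p = 0.00515 from the edgeR fit) and missed the threshold, with FDR = 0.0913. It was called by DESeq2 (adjusted p = 0.0391), without the filter on low counts (FDR = 0.0265) and without control replicate 2 (FDR = 0.0140). Without control replicate 1 the log2 fold change was 0.12 (FDR = 0.465), and under a correction for locus length and GC content it was 0.08 (FDR = 0.408 from the edgeR fit). Cbx7 overlaps 4 short loci annotated on the other strand, and whether the counting used strand is not given in the sources used here.

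Cbx2 (chr11:119023021-119031275, plus strand), a CBX that compacts nucleosomes and is prominent in differentiating cells, had 32.9 and 33.0 CPM in the controls and 35.7 and 31.3 CPM after morphine. The morphine libraries lay on either side of the controls. The log2 fold change was 0.02 (SE 0.07, FDR = 0.891).

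Phc1 (chr6:122317731-122340227, minus strand) had 667 and 676 CPM in the controls and 668 and 660 CPM after morphine. The groups overlapped, and the log2 fold change was −0.02 (SE 0.04, FDR = 0.877), with a 95% interval of −0.10 to 0.07. The promoters of Cbx7 and Phc1 are shown as a contrast in CG content between a pair of strongly expressed subunits, neither with an H3K27me3 peak. The Cbx7 promoter had 33 CG dinucleotides, more than in 91.4% of the promoters in the table, and the Phc1 promoter had 9, more than in 54.2%. The median over all promoters was 7.
Cbx7 promoter, chr15:79932597-79932896, minus strand: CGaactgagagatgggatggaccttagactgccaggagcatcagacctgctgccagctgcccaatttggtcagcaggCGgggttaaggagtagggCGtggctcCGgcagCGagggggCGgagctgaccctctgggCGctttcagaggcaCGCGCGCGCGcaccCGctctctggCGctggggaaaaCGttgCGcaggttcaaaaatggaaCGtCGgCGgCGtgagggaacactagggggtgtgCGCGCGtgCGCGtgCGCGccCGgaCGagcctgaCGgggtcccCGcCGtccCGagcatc
Phc1 promoter, chr6:122340178-122340477, minus strand: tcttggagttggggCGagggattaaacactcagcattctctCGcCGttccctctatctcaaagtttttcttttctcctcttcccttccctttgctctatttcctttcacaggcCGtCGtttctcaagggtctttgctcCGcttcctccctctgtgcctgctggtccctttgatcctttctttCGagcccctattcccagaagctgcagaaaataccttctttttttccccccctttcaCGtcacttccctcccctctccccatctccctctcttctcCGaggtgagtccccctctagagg

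The variant subunits Rybp and Kdm2b had log2 fold changes of opposite sign. Rybp (chr6:100228565-100288227, minus strand), which stimulates the ligase and binds ubiquitinated H2A, had 100 and 96.5 CPM in the controls and 92.5 and 90.1 CPM after morphine. Both morphine values were lower, with a log2 fold change of −0.11 (SE 0.05, FDR = 0.268). Kdm2b (chr5:122870668-122989211, minus strand), the CpG-island-binding subunit, had 142 and 143 CPM in the controls and 153 and 151 CPM after morphine. Both morphine values were higher, with a log2 fold change of 0.09 (SE 0.05, FDR = 0.316).

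**Figure D2:**
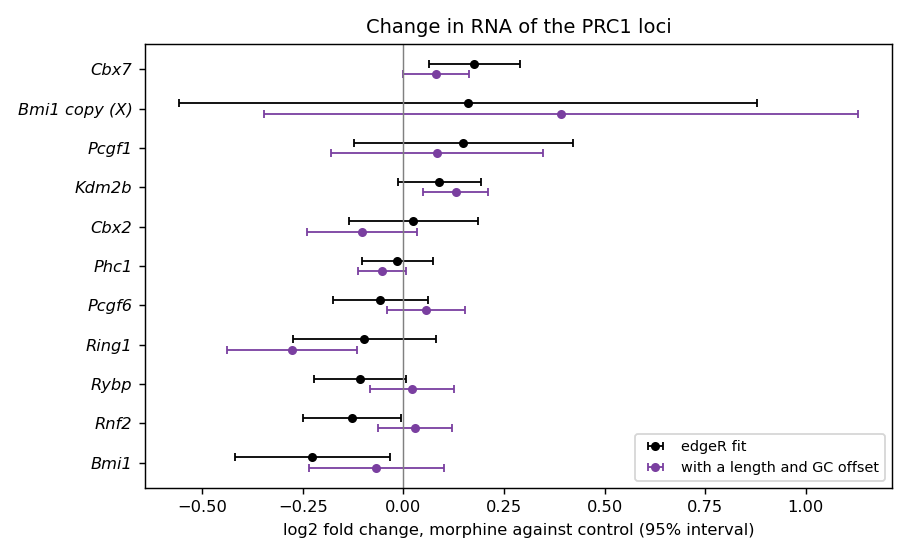
Log2 fold change of morphine against control for the 11 PRC1 loci, with 95% intervals from the edgeR fit (black) and from the same fit with an offset for locus length and GC content (purple). The interval of Cbx7 lay above 0 and those of Bmi1 and Rnf2 below 0 without the offset, and all 3 included 0 with it. Those of Ring1 (below 0) and Kdm2b (above 0) included 0 without the offset and excluded it with the offset, though neither was called.

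The direction of change moved with the base composition of the genes. Over all tested loci the log2 fold change and the GC content of the exons had a Spearman correlation of 0.48, given as a description across loci that share the same 4 libraries. All 4 PRC1 genes with a GC content under 45% had a negative log2 fold change, namely Bmi1 (40.3%), Rnf2 (40.4%), Rybp (42.7%) and Pcgf6 (43.4%). Of the 6 genes above 45%, 4 had a positive one, namely Kdm2b (49.8%), Pcgf1 (52.5%), Cbx7 (56.2%) and Cbx2 (57.1%). Phc1 (52.9%) was near 0, and Ring1, with the highest GC content (60.7%), was negative.

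With the length and GC offset in the fit, the log2 fold change turned positive for Rnf2 (0.03), Rybp (0.02) and Pcgf6 (0.06), and turned negative for Cbx2 (−0.10). That of Bmi1 was −0.07 and that of Ring1 −0.28 (FDR = 0.142 from the edgeR fit), which was then the lowest of the 11. Kdm2b had 0.13 with the offset (FDR = 0.168 from the edgeR fit). No PRC1 locus was called with the offset, and 93 loci were called over the whole table, against 309 without it. What part base composition had in each difference was not tested further.

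**Figure D3:**
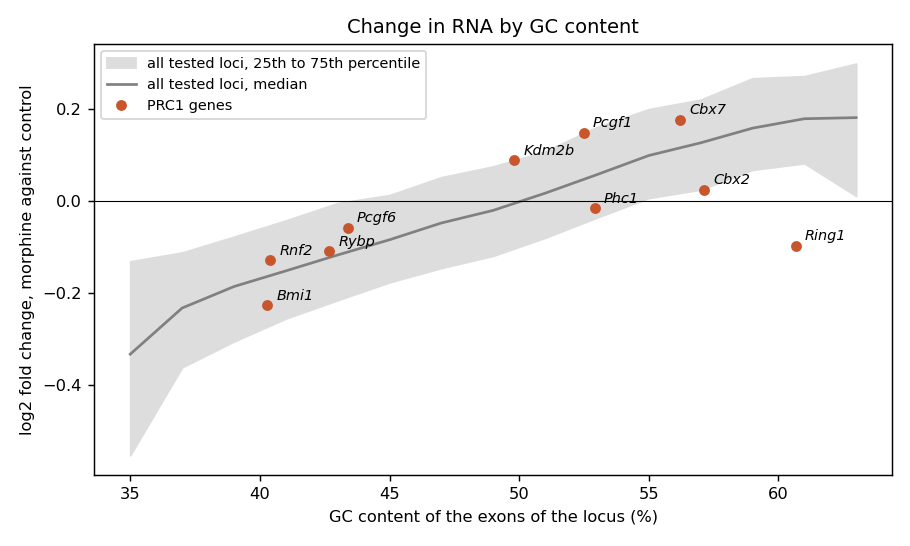
Log2 fold change of morphine against control, plotted against the GC content of the exons in %, for the 10 PRC1 genes (points) over the median (line) and the 25th to 75th percentile (band) of all tested loci in steps of 2% GC. The median rises from −0.33 at 35% to 0.18 at 63% GC, and 9 of the 10 genes lie in or at the edge of the band, with Ring1 below it.

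Of the other PRC1 subunits listed, 30 names gave 35 loci, of which 34 were tested. One was called: Mga, the DNA-binding subunit that partners Pcgf6 and Max, had 256 and 245 CPM in the controls and 196 and 221 CPM after morphine. The groups did not overlap, and the log2 fold change was −0.26 (SE 0.06, FDR = 0.0481). The call was lost without morphine replicate 1 (−0.18, FDR = 0.416) and with the length and GC offset (−0.08, FDR = 0.384 from the edgeR fit). Other loci with differences of this size were not called in this fit, namely Cbx3 (−0.30, FDR = 0.0783), Scml2 (−0.28, FDR = 0.0597 from the edgeR fit) and an Auts2 transcript below 1 CPM (0.30, FDR = 0.752). Cbx3 and Scml2 were called by edgeR's exact test (FDR = 0.0434 and 0.0272), its likelihood ratio test (0.0427 and 0.0260) and without the count filter (0.0122 and 0.0121), and Cbx3 also without control replicate 2 (0.0277). With the replicate block the FDR was 0.0256 for Cbx3 and 0.0295 for Scml2, and with the length and GC offset it was 0.363 and 0.403. In all 23 loci were negative and 11 positive, with a median log2 fold change of −0.07. The 5 core PRC2 genes Ezh2, Eed, Suz12, Rbbp4 and Rbbp7 were all negative (49.7% of tested loci were) with a median of −0.08, and none was called. Both morphine libraries were below both controls for 4 of these 5 (26.8% of tested loci). The log2 fold changes of the 5 ran from −0.18 to −0.06. Their median GC content was 44.5%, and all tested loci in the bin centred on 45% GC had a median of −0.08. The other PRC1 loci had a median GC content of 50.8%, where the bin centred on 51% had a median of 0.02. What part base composition had in either list was not tested. Of the 4 genes for removers of the ubiquitin mark, Bap1, Asxl1, Asxl2 and Usp16, none was called, with a median of −0.05.

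The profiles over the 4 RNA libraries that lay closest to a member's among these PRC1 genes were those of Auts2 to Rybp (distance 0.02), Dcaf7 to Pcgf6 (0.03) and Fbrsl1 to Cbx7 (0.03). The distance is Euclidean on centred log2 CPM over 4 values, and Auts2 entered through several tested loci, some of which overlap.

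The second question was whether H3K27me3, the mark that CBX subunits read, lay on the genes of PRC1 itself. The authors called peaks in each library on its own, with 10305 and 13778 peaks in the controls and 8681 and 12282 after morphine. Peaks within 5 kb of the 5′ end were present at 2 and 3 of the 11 loci in control replicates 1 and 2, beside 24.3% and 25.1% of the 18179 tested loci that have a strand in the count table and so a 5′ end, to which all shares of loci with peaks refer. After morphine they were present at 1 and 2 of the 11, beside 23.6% and 25.5%. The mean was 2.5 ± 0.707 (SD, n = 2) in the controls and 1.5 ± 0.707 after morphine (two-sided exact permutation test, p = 0.667), and the smallest p this design allows is 0.33. At no PRC1 locus was a peak shared by the morphine libraries and absent from the controls (1.16% of tested loci), or the reverse (1.07%).

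For 8 of the 11 loci no library had a peak within 5 kb, as for 67.0% of tested loci. These were Ring1, Pcgf1, Pcgf6, Bmi1, Cbx7, Phc1, Rybp and Kdm2b. The nearest peak to the 5′ end of Cbx7 was 79.8 to 80.1 kb away in the 4 libraries, and that of Phc1 was 42.0 to 42.2 kb away. For Ring1 it was 14.3 to 17.4 kb, for Pcgf1 17.2 to 18.9 kb, for Bmi1 28.7 to 37.2 kb and for Pcgf6 34.1 to 34.4 kb away. For Rybp it was 78.3 to 271 kb away. The called peaks thus lay well away from these 5′ ends in both conditions. Rnf2 had a peak in control replicate 2 alone (chr1:151501683-151503224), 860 bp upstream of the 5′ end of the locus and 728 bp upstream of the nearest GENCODE start. Its score of 53.8 was close to 50, the lowest in the lists, and only 8.1% of the peaks of that library ranked below it. The X-linked Bmi1 copy had a peak in 3 libraries, both controls and morphine replicate 2, which began 3606 to 3719 bp inside the locus and ran over the pseudogene and past the 3′ end of the locus.

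Cbx2 was the only PRC1 locus with a peak within 5 kb in all 4 libraries, as were 17.0% of tested loci. The peak covered its GENCODE start in each library and reached upstream. It spanned chr11:119017896-119023261 and chr11:119017755-119023282 in control replicates 1 and 2. After morphine it spanned chr11:119017070-119023403 and chr11:119016383-119023365. It was 5366 and 5528 bp wide in the controls and 6334 and 6983 bp wide after morphine, so both treated libraries had a wider peak at both ends. Both morphine peaks were wider than both control peaks at 27.8% of the 3095 loci with a peak in all 4 libraries, and 6.85% gained more width than the 1212 bp of Cbx2.

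The Cbx2 peak stood lower in the ranking of its library after morphine. Its score, a transform of the caller's p-value (−10 × log10), was 331 and 424 in the controls and 141 and 115 after morphine. Scores depend on a sequencing depth that the lists do not give, so the rank within each library was used to compare them. The peak outranked 98.0% and 98.9% of the peaks of its library in the controls, and 80.6% and 70.5% after morphine. The groups did not overlap, and the mean difference was −22.9 percentage points (p = 0.33 by the exact permutation test, which can go no lower here). When the same number of strongest peaks was ranked in each library, an alternative chosen after seeing the data, the percentiles were 97.6 and 98.3 in the controls and 80.6 and 58.2 after morphine.

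Among the 3095 loci with a peak in all 4 libraries, 24.8% ranked lower in both morphine libraries and the median difference was −1.65 percentage points. A difference as low as that of Cbx2 was found at 9.27% of them. Of the 103 loci whose control peaks ranked as high as that of Cbx2, Cbx2 itself was the only one with a difference as low. This comparison was chosen after the values were seen and is a description. The change in rank went with no difference in Cbx2 RNA beyond the spread of the libraries, as given above.

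**Figure D4:**
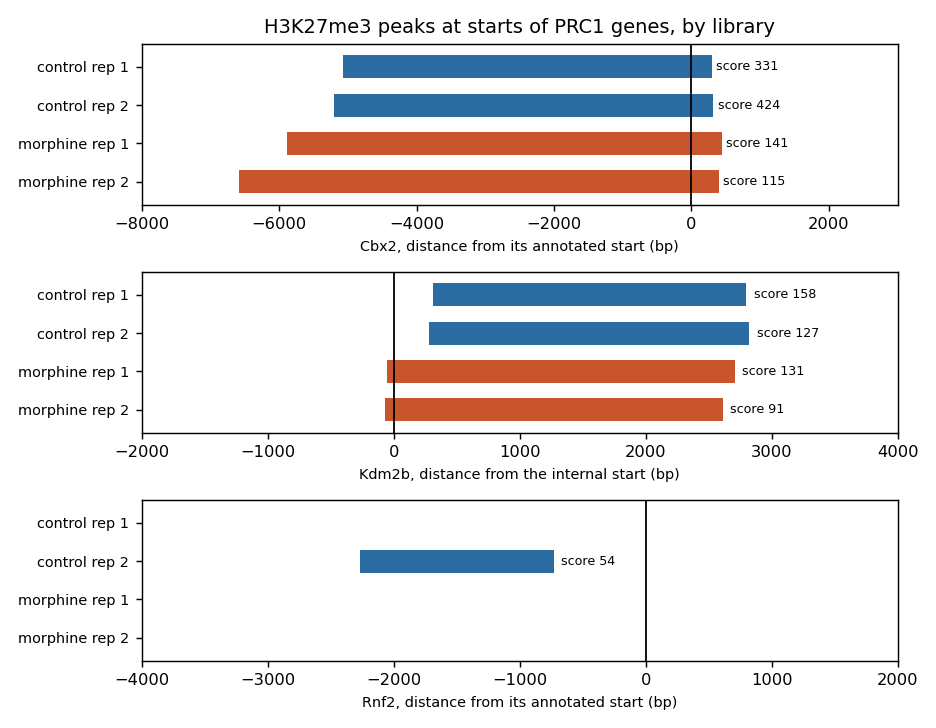
H3K27me3 peaks at the starts of Cbx2, Kdm2b (an internal start) and Rnf2 in each of the 4 ChIP-Seq libraries, as bars from the first to the last base against the distance from the GENCODE start in bp (negative is upstream). The Cbx2 peak is wider after morphine with scores of 141 and 115 against 331 and 424, the Kdm2b peak reaches the start only in the morphine libraries, and Rnf2 has a peak only in control replicate 2.

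Kdm2b had no peak at its 5′ end, where the nearest lay 33.9 to 34.2 kb away, but had 2 peaks within the gene in all 4 libraries. One lay at an internal start that gives shorter transcripts (GENCODE, position 122900355 of chromosome 5). In the controls it spanned chr5:122897556-122900043 and chr5:122897533-122900073, in intron and ending 312 and 282 bp downstream of the internal start. After morphine it spanned chr5:122897648-122900409 and chr5:122897744-122900427, past the start by 54 and 72 bp and onto an exon. The morphine peaks thus covered the start and the control peaks did not. In a comparison chosen after the values were seen, this held for 7.67% of the 5177 GENCODE starts with a peak within 1 kb in all 4 libraries, and the reverse for 0.174%. It outranked 83.3% and 75.6% of the peaks in the controls and 77.7% and 56.7% after morphine, so the groups overlapped in rank. The other peak, within an intron, outranked 97.0% and 97.2% of the peaks in the controls and 95.9% and 98.1% after morphine.

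The promoter at this internal Kdm2b start is shown beside that of the first start, because the morphine peaks reached into the former and no library had a peak at the latter. The internal promoter had 49 CG dinucleotides, more than in 99.0% of promoters, and that of the first start had 28, more than in 85.8%. The deposited counts are per locus, so the RNA from these starts was not separated here.
Kdm2b promoter, chr5:122900301-122900600, minus strand: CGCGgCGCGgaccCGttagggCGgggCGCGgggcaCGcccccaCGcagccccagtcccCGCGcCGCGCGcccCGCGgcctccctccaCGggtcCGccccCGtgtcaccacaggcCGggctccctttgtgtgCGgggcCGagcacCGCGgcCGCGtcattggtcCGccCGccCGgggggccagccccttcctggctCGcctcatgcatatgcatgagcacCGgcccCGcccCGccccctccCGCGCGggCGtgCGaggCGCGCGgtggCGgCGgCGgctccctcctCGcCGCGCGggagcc
Kdm2b promoter, chr5:122989050-122989349, minus strand: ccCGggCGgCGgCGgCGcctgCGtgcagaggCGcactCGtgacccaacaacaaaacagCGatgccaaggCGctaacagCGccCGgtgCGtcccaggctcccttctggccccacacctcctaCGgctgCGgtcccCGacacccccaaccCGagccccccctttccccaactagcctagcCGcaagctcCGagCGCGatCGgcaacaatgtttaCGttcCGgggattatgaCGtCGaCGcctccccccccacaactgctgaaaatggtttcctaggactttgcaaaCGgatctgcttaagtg

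Beside the members, a peak within 5 kb in all 4 libraries was found at 7 of the 35 loci of the other PRC1 subunits, namely Pcgf2, Pcgf3, Phc2, Bcorl1, E2f6, Hdac2 and Mga, against 17.0% of tested loci. None of the 5 PRC2 genes had a peak in all 4, and only Suz12 had one shared by the morphine libraries and absent from the controls (1.16% of tested loci), with scores of 62.7 and 53.0 near the lowest in the lists.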

How the data were processed

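The RNA table holds raw counts for each locus as the authors deposited them, made with HISAT2 (2.1.0) on mm10, StringTie (1.3.6) and featureCounts (1.6.4). For ChIP-Seq, the deposited peak lists give a score per peak, from Bowtie2 (2.3.5.1) alignments and MACS at a p-value of 1e-05, called per library. The control library given to MACS is not given in the sources used here. Loci without a gene name (3550) held 2.04% of the counts. They carry an identifier and a position, and stayed in the fit. Tool versions of the authors are from the submitters' processing notes.

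Counts were filtered with filterByExpr, scaled by TMM and tested with edgeR 4.0.16 (glmQLFit, glmQLFTest, R 4.3.3) over all loci, at an FDR of 0.05. DESeq2 (1.42.0), other scalings, filters, peak windows and libraries left out were alternatives. The length and GC offset was a natural spline with 5 degrees of freedom. Peaks overlapping the 5 kb around the 5′ end by at least 1 bp were counted. Scripts were tested on simulated data. All 10 members were named, with other genes named if called, among the 3 largest changes of a list or closest in profile to a member. Loci of the lists with peaks in all 4 libraries, Suz12, and the 3 pluripotency genes given with a fold change were named after their values were seen. Members and lists were chosen with earlier results of these data known. The antibody supplier differs between the labels and the methods.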

Additional observations from a re-analysis of the deposited data

How the results depend on the processing

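Of 138 log2 fold changes of the 11 loci under the alternatives, 123 kept their direction and their side of the threshold, 12 turned sign and 3 passed the threshold. With the length and GC offset the value turned for Rnf2 (0.0282, and 0.0286 with the replicate block added), Pcgf6 (0.0563 in both), Cbx2 (−0.1027 and −0.1039) and Rybp (0.0212 and 0.0208). Ring1 kept its sign with the offset (−0.2774) and with the block added (−0.2773, FDR = 0.0709 from the edgeR fit). With library totals alone Phc1 turned to 0.0048. Leaving out 1 library at a time gave −0.029 to 0.001 for Phc1, −0.0717 (without morphine replicate 1) to 0.1188 for Cbx2, −0.0951 (without morphine replicate 1) to 0.3942 for the X-linked Bmi1 copy, and 0.1212 to 0.2361 for Cbx7. The number of PRC1 loci called was 0, or 1 (Cbx7) with DESeq2 (log2 fold change 0.1777), without the count filter (0.1702) and without control replicate 2, and ran from 0 to 1 over the libraries left out. DESeq2 gave no adjusted p for 5 of the 11 loci. Except for the correction itself, the cause of these shifts was not tested. The same-numbered libraries deviated with a correlation of 0.03, which cannot decide whether the samples were paired. Neither the labels nor the methods say that a replicate number marks a shared batch. With the replicate block 0 of the 11 loci were called. The number of loci called over the whole table, 309, was 790 with the exact test, 840 with the likelihood ratio test, 652 with DESeq2, 515 with library totals, 1657 without the count filter, 1128 with the replicate block, 93 with the offset, and 13 (without morphine replicate 1) to 1619 (without control replicate 2) with a library left out. A lone library was then assumed to vary like the other group. The number of loci with a peak was lower after morphine by a mean of 1 locus. The difference was −0.5 with a 1 kb window, a score of at least 100, equal peak numbers, or without control replicate 2 or morphine replicate 1, −1.5 without either other library, and −1 in the other 3 settings. The exact permutation test of the peaks cannot go below 0.33. The methods state a minimum sequencing depth, but the depth of each ChIP-Seq library is not given in the sources used here.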
